A study of Homo sapiens with 12 samples.

Results

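The regions described here had an ATAC-seq peak in KO-52 cells of all 3 lines in DMSO and in none of them after tunicamycin. Peaks on chromosomes 1 to 22 and X of 6 deposited lists were merged at an overlap of 1 bp into 355051 regions, and 134840 of them were found in each of the 3 DMSO lists. They were chosen by the presence or absence of a called peak. Of the 134840, 1793 (1.33%) had no peak in any of the 3 tunicamycin lists, and they are called lost regions below, which says only that no peak was called. The KO-52 line was established from acute myeloid leukaemia (AML) and carries mutations in both alleles of CEBPA, which every group shares. The cells were transduced with the long C/EBPα isoform p42, the short isoform p30 or an empty vector (EV), and each line was kept in DMSO or treated with tunicamycin (Tm) at 2 µg/mL for 8 h. The paper describes KO-52 cells transduced with isoforms fused to ERT2, a fragment that ties nuclear entry to hydroxytamoxifen. By its methods, cells with such fusions and empty vector controls received hydroxytamoxifen before an experiment. The sample labels do not name it. The 12 libraries, 2 replicates of 50000 nuclei in each of 6 conditions, were pooled by the authors into 1 peak list per condition. There was therefore no replicate spread and no test between conditions, and the intervals below cover the counting of regions only.

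In ATAC-seq, the transposase Tn5 cuts DNA that is not wrapped tightly in nucleosomes, and a peak marks a stretch where more fragments pile up than in its surroundings. Tunicamycin blocks the first step of N-linked glycosylation, so that misfolded proteins gather in the endoplasmic reticulum and the unfolded protein response sets in, with ATF4 and CHOP among its transcription factors. C/EBPα is the transcription factor that drives granulocytic differentiation, and p30 lacks the transactivation domains at the amino terminus of p42.

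The DNA of 9 lost regions is given below as the hg38 plus strand, 100 bp on each side of the strongest summit in DMSO. The first 3 are among the strongest lost regions, far from DACT1 (an inhibitor of Wnt signalling at Dishevelled), and in introns of VGLL3 (a cofactor of TEAD factors) and SLCO3A1 (an organic anion transporter). The next pair are the strongest within 1000 bp of a protein-coding start site, of SSB (the La protein, which binds the ends of RNA polymerase III transcripts) and KDM6B (a demethylase of lysine 27 of histone H3). The one that follows, between genes and 1187379 bp from its nearest protein-coding start site (SLITRK5), has the composite C/EBP and AP-1 word in its window. The last 3 lie in or beside genes of myeloid cells, IL6, KIT and CSF1R. Capitals mark the RUNX word (TGTGGT, or ACCACA on the other strand) in the windows of DACT1, KIT and CSF1R, the AP-1 word (TGAGTCA) at VGLL3, the PU.1 word (GAGGAAGT) at KDM6B, and the composite word (TGTTGCAA) with the RUNX word at SLITRK5. A word may lie in the window and outside the called peak.
nearest start site DACT1 (chr14:58797008-58797208): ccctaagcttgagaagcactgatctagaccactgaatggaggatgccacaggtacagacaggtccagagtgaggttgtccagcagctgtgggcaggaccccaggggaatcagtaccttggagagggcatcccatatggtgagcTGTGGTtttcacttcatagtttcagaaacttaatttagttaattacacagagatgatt
VGLL3 intron (chr3:86910171-86910371): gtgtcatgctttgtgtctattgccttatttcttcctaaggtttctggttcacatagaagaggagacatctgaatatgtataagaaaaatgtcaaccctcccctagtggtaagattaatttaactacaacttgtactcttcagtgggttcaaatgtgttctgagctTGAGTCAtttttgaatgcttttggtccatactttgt
SLCO3A1 intron (chr15:92054038-92054238): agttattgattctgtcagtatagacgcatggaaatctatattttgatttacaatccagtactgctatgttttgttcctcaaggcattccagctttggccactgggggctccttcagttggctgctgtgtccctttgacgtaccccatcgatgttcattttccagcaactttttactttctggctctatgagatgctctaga
SSB promoter (chr2:169799676-169799876): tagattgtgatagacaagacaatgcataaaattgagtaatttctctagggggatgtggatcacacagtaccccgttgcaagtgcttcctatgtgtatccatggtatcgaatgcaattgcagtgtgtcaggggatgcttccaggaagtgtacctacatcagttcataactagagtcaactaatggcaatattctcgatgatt
KDM6B promoter (chr17:7843912-7844112): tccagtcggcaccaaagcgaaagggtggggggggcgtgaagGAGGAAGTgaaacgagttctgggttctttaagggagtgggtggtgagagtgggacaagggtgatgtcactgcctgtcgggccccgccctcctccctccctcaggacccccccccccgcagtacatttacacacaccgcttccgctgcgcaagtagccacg
nearest start site SLITRK5 (chr13:88859984-88860184): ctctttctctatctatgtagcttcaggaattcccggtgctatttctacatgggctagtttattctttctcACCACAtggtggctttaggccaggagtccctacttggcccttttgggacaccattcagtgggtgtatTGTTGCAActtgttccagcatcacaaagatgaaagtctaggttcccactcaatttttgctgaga
beside IL6 (chr7:22723080-22723280): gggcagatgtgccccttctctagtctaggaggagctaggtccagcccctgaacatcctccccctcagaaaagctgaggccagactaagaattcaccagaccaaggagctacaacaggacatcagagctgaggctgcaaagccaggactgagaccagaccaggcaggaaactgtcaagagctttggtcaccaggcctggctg
KIT intron (chr4:54688741-54688941): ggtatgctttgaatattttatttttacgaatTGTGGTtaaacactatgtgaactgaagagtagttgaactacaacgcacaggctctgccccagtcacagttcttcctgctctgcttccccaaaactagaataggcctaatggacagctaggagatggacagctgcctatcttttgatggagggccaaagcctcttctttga
CSF1R intron (chr5:150103289-150103489): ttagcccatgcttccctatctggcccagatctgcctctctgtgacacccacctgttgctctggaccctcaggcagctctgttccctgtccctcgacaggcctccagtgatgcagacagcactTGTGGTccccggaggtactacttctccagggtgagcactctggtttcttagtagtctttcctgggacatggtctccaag

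The lost regions were weak in DMSO. The number of fragment tags at a summit was recovered from the deposited fold enrichment and −log10 p, and it had a median of 6 in EV cells (interquartile range 5 to 8, highest 21), 7 in p42 cells (6 to 9, highest 22) and 7 in p30 cells (6 to 8, highest 30), with a lowest value of 4 in each. Over all 134840 regions of the 3 DMSO lists the medians were 14, 17 and 15 tags. The median peak width of the lost regions was 87 bp in EV, 94 bp in p42 and 91 bp in p30 cells, against 191, 211 and 203 bp over all regions. These values are those by which a peak is called, so they describe the choice of regions and are not a finding about them.

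**Figure D1:**
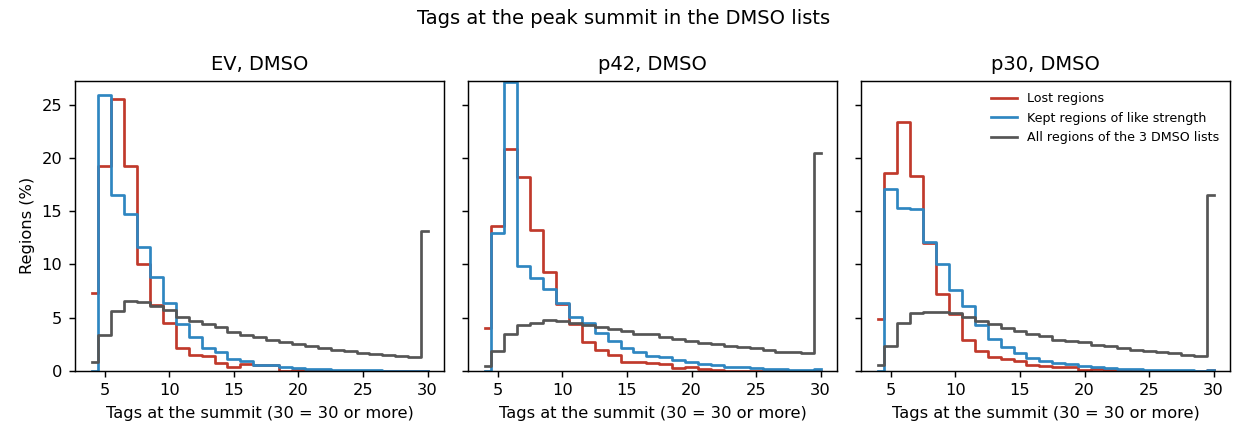
Tags at the peak summit (x axis, tags; the last step holds 30 or more) against the share of regions (y axis, %) in the DMSO list of each line, for the lost regions, for kept regions of like strength and for all regions of the 3 DMSO lists. The lost regions gather at their medians of 6, 7 and 7 tags, and all regions spread around 14, 17 and 15.

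The share lost fell with the strength of the weakest DMSO peak of a region, measured as its lowest −log10 q over the 3 lists. It was 11.2% (332 of 2955, 95% Wilson interval 10.1 to 12.4%) between 1.3, the limit of the lists, and 2, 6.98% between 2 and 3, 3.17% between 3 and 4, and 0.974% between 4 and 5. Between 5 and 6 it was 0.255% (21 of 8220) and between 6 and 8 it was 0.0435% (7 of 16090). None of the 67455 regions at 8 or above was lost, where 3 counts would be 0.00445%. So no region with a −log10 q of at least 8 in all 3 lines in DMSO was without a peak in all 3 lines after Tm. The strongest lost region lay just below that edge, at 7.997. The reverse set, 716 regions with a peak in all 3 Tm lists and in no DMSO list, was 0.561% of the 127543 regions of the 3 Tm lists. Its share was lower in each interval up to a −log10 q of 6 (4.59% between 1.3 and 2, 0.121% between 5 and 6), and it held 5 regions between 8 and 10 and 2 between 10 and 20, where no region was lost.

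**Figure D2:**
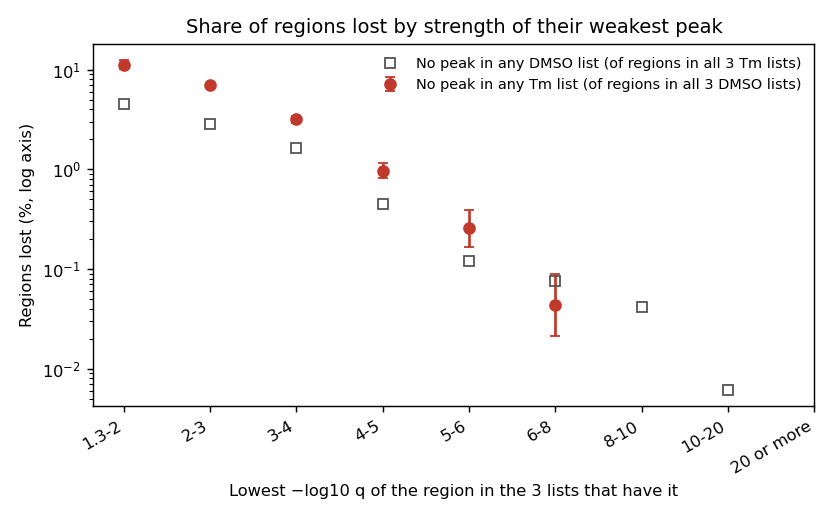
Share of regions lost (y axis, %, log scale) in intervals of the lowest −log10 q of a region (x axis), for regions lost with Tm (circles, bars are 95% Wilson intervals) and for the reverse set (squares). Shares of 0 are not drawn. The share lost with Tm goes from 11.2% in the weakest interval to 0.0435% between 6 and 8.

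Absence from a single Tm list was more frequent than absence from all 3. Of the 134840 regions, 9361 (6.94%) had no peak in EV Tm, 9003 (6.68%) none in p42 Tm and 11249 (8.34%) none in p30 Tm. The estimated depth was 22.2, 30.0 and 26.5 M tags in EV, p42 and p30 cells in DMSO, and 25.1, 25.4 and 23.1 M tags after Tm. The EV list was thus deeper after Tm than in DMSO, by a ratio of 1.13, and the other two were shallower, with ratios of 0.848 in p42 and 0.870 in p30 cells. With tags and background scaled to the shallowest list 1537 regions were lost, an alternative chosen after the data were seen.

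Beyond the edge of the rule, 5603 regions (4.16%) kept a peak in exactly 1 Tm list, 13028 (9.66%) in 2 and 114416 (84.9%) in all 3. Their median lowest −log10 q in DMSO was 2.98, 3.44 and 9.96, against 2.57 for the lost regions (interquartile range 2.26 to 3.25, highest 7.997). Of the 5603 regions kept in 1 line, 2733 were kept in p42, 1687 in EV and 1183 in p30 cells. Just inside the rule, the lowest −log10 q of a lost region was 1.34 in EV, 1.32 in p42 and 1.31 in p30 cells. Just outside it, the weakest peak that kept a region had 1.31 in EV, 1.36 in p42 cells after Tm, and in p30 cells it stood at the limit of 1.3.

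The room between the DMSO tags and the number needed for a call after Tm was small. At the background of a lost region, scaled to the depth of the Tm list, the median number of tags needed for a peak was 4 in each line. An exact 95% Poisson interval around 7 tags runs from 2.81 to 14.4, which includes 4. The lower bound of such an interval around the tags of each region was scaled to the depth of the Tm list. It lay above the number needed in 129 lost regions in EV, 119 in p42 and 69 in p30 cells. In 1508 of the 1793 lost regions it did so in no line, and in 2 it did so in all 3 lines. These intervals cover the counting of tags only. They rest on the DMSO tags, which belong to the choice of regions, so they are a description. The same counts were not made for other regions, so they cannot be called particular to the lost regions.

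The 2 regions are those in PTPN13 and nearest DACT1. The PTPN13 region, in an intron of a protein tyrosine phosphatase gene, had 10 tags in EV, 17 in p42 and 10 in p30 cells. Its −log10 q was 8.64, 15.6 and 7.997, and 4 tags were needed after Tm. It was the strongest lost region by its lowest −log10 q, and p42 cells were the highest of the 3. The region nearest DACT1 (chr14:58797051-58797170) lies in an intron of a non-coding gene, 158214 bp from the DACT1 start site, and had 12, 10 and 11 tags in EV, p42 and p30 cells, with −log10 q of 11.3, 7.66 and 9.25. Its tag counts, not scaled to depth, lay close together, and the nearest Tm peak of any line was 29893 bp away, against 3832 bp at PTPN13.

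The tag counts of the 3 lines, not scaled to depth, were alike in some of the next lost regions and not in others. Depth in DMSO was 22.2, 30.0 and 26.5 M tags in EV, p42 and p30 cells, so equal counts are not equal shares of the tags. In the VGLL3 intron (chr3:86910171-86910324) and in the SLCO3A1 intron (chr15:92053929-92054182) each line had 9 tags. At SORL1, a sorting receptor of endosomes (chr11:121572592-121572702), EV had 10 tags and p42 and p30 cells had 9. The region near BAHCC1 (chr17:81472147-81472318) was lower in EV cells, with 9 tags against 14 in p42 and 16 in p30 cells. In the ERCC6L2 intron p42 cells stood apart, with 17 tags against 8 and 8, and in the region nearest PCDH9 EV cells did, with 16 against 10 and 11. In the VPS13C intron p30 cells had the most tags, with 21 against 15 and 15. Of the 25 strongest lost regions, 16 lay in introns, 6 between genes and 3 at start sites, and 9 were over 5000 bp from any Tm peak.

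To set the lost regions beside others with a weakest DMSO peak of like strength, 14135 regions were taken that kept a peak in at least 1 Tm list and whose lowest −log10 q in DMSO lay within the interquartile range of the lost regions. They are called kept regions of like strength, and only the lowest −log10 q was made alike. Their other peaks were stronger, with median tags of 7 in EV, 8 in p42 and 8 in p30 cells, a median −log10 q in p30 cells of 4.50 against 3.44 in the lost regions, and median peak widths of 111, 121 and 117 bp. Scaled to depth, EV cells had the most tags in 57.1% of the lost regions (54.8 to 59.3%). The share was 45.2% in the kept regions of like strength and 49.4% in all regions. These tags belong to the choice of regions, so the shares are a description.

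The sequence of the lost regions recurred in the genome more often than that of either comparison set. A window was called repeated where at least 50% of its 24-base words stood at 10 or more places of hg38, on either strand. Repeated windows made up 5.30% of the lost regions (95 of 1793, interval 4.35 to 6.43%), 2.85% of the kept regions of like strength (2.59 to 3.14%) and 1.87% of all regions (1.80 to 1.94%). The intervals of the 3 sets do not overlap, and the reverse set had 3.63% (2.49 to 5.27%). Turned around, 3.77% of the 2518 repeated windows among the DMSO regions were lost (3.10 to 4.59%), against 1.28% of the other 132322 (1.22 to 1.35%). At like strength the shares lost were 11.8% of repeated windows (8.87 to 15.6%) and 6.82% of others (6.38 to 7.30%) between a −log10 q of 2 and 3, and 7.09% (5.01 to 9.94%) and 3.06% (2.80 to 3.35%) between 3 and 4. In the interval from 1.3 to 2, the shares of 15.3% (9.16 to 24.4%) and 11.1% (10.0 to 12.3%) overlapped in their intervals.

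**Figure D3:**
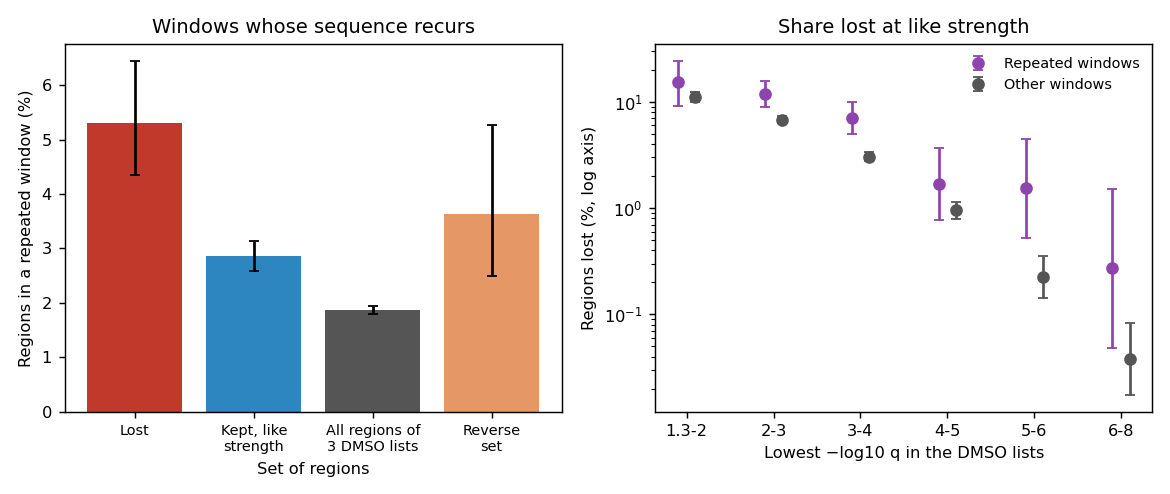
Left, share of regions in a repeated window (y axis, %) for each set of regions. Right, share of DMSO regions lost (y axis, %, log scale) by the lowest −log10 q in DMSO (x axis), for repeated and other windows. Bars are 95% Wilson intervals, and the lost regions stand at 5.30% against 2.85% in kept regions of like strength.

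The PTPN13 region was the clearest case. Of the 24-base words of its window 92.7% stood at 10 or more places, and the median word stood at about 1020.5. Among the 25 strongest lost regions 4 windows were repeated, and the region nearest DACT1 was not, since the median word of its window stood at 1 place. The tags of the repeated lost regions resembled those of the others, with medians of 6, 7 and 7 in EV, p42 and p30 cells in both. A read from a repeated stretch can be placed at several loci, and the part that such placement has in the loss of these peaks was not tested.

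No motif set the lost regions above regions of like strength. Exact words for 30 motifs were searched on both strands within 100 bp of the summit, and a match is a description, not a bound site. Against all regions, the interval of the lost regions lay below for 7 motifs and above for 2, and it covered the share of all regions for 21. Against the kept regions of like strength it lay below for 5 motifs (AP-1, the composite C/EBP and AP-1 word, PU.1, the ETS core GGAAG and RUNX) and above for none. No correction over the 30 motifs was made.

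AP-1, the family of FOS and JUN dimers, had its word (TGAGTCA) in 173 lost regions (9.65%, 8.37 to 11.1%), in 11.8% of the kept regions of like strength and in 10.3% of all regions. The composite word TGTTGCAA, which pairs a C/EBP with an AP-1 half-site, was in 5 lost regions (0.279%, 0.119 to 0.651%), against 0.891% and 0.875%. The C/EBP words (TTGCGCAA and TTGCACAA) were in 22 (1.23%), close to 1.05% and 1.16%. The 5 regions with the composite word had 5 to 7 tags with EV, 6 to 12 with p42 and 5 to 7 with p30. The region whose nearest start site is SLITRK5 (chr13:88859994-88860121) lies far from it, and EV had 7 tags, p42 cells 9 and p30 cells 7, and in an intron of SLC24A3, a sodium, potassium and calcium exchanger (chr20:19333346-19333686), p42 cells had 12 against 7 and 6. The composite share was 0.319 of that in all regions, and this ratio became 0.549 with windows of 50 bp and 0.746 with 250 bp, where the interval covered the share of all regions, as it did at a −log10 q of at least 3 (ratio 0.362). The word for PU.1, the ETS factor of myeloid and B cells (GAGGAAGT or GGGGAAGT), was in 175 (9.76%, 8.47 to 11.2%), against 12.8% and 11.9%.

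Among the regions of the DMSO lists, the RUNX word was more frequent in repeated windows than in others. The RUNX word was in 418 lost regions (23.3%, 21.4 to 25.3%), against 25.8% of the kept regions of like strength. It was in 46 of the 95 repeated lost windows (48.4%, 38.6 to 58.3%) and in 372 of the 1698 others (21.9%, with an upper bound of 23.9%). In the kept regions of like strength the same split gave 35.2% (30.7 to 40.0%) and 25.5% (24.8 to 26.2%). Outside repeated windows the lost regions were thus the lower of the 2 sets, with intervals that do not overlap. A single 24-base word that holds ACCACA, found at 16377 places of the genome, was in 26 lost regions. All 26 were counted for RUNX by it, and 23 were repeated windows. In the reverse set RUNX was in 2 of 26 repeated windows (7.69%, 2.14 to 24.1%) and in 19.4% of the others.

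The 2 motifs above their share in all regions were MYB (22.9% against 21.0%, for words such as CAACGG) and the nuclear receptor half-site (AGGTCA, 12.9% against 11.2%), and in the kept regions of like strength the shares were 21.7% and 12.5%, within both intervals. Without repeated windows MYB was no longer above, the half-site was, and GATA and MEIS joined it. SP/KLF boxes (GGGCGG), common at CpG-rich promoters, were in 6.92% of lost regions (5.83 to 8.18%), 13.4% of all regions and 6.23% of the kept regions of like strength. The CTCF motif, of the insulator factor, was in 17 lost regions (0.948%, 0.593 to 1.51%), 4.59% of all and 1.46% of the kept regions of like strength. Both therefore lay below all regions and near regions of like strength.

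The ATF4 word (TGATGCAA, the CARE that joins C/EBP and ATF half-sites) was in 11 lost regions (0.613%, 0.343 to 1.10%). It was in 0.976% of the kept regions of like strength, in 0.874% of all regions and in 50 of the 716 regions of the reverse set (6.98%, 5.34 to 9.09%). The intervals of the lost regions and the reverse set do not overlap. The lost region nearest RGS17 had 6 tags in EV, 10 in p42 and 7 in p30 cells, and the one nearest FSTL5 had 6, 7 and 6. Of the 11 windows 1 was repeated, that of RGS17. The FSTL5 window fell just under the limit of 50%, with 47.2% of its 24-base words at 10 or more places and 68.5% at 2 or more. The UPRE (TGACGTGG), read by ATF6 and XBP1, was in 6 lost regions (0.335%), against 0.333% of the kept regions of like strength.

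**Figure D4:**
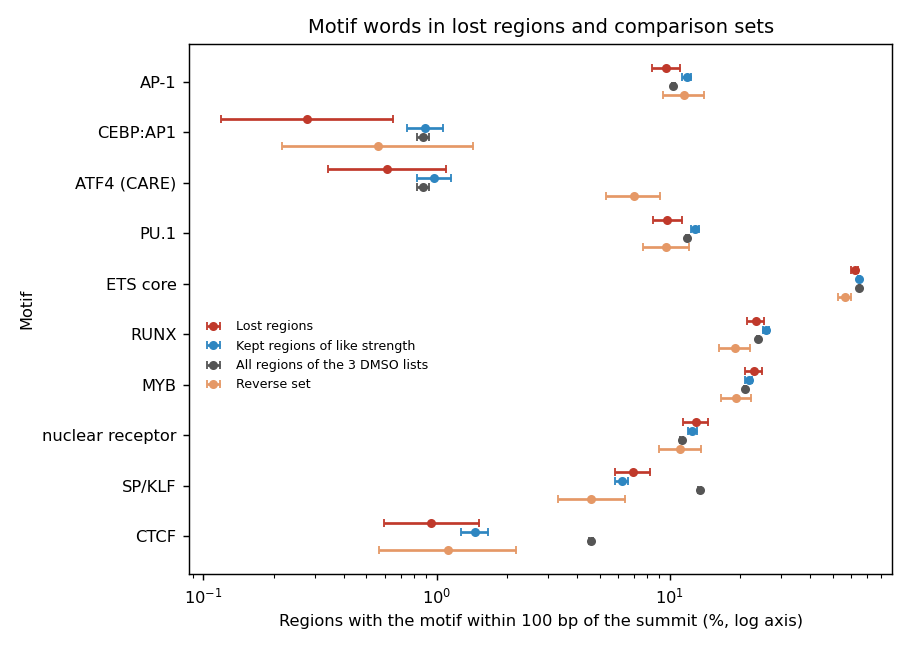
Share of regions with each motif word within 100 bp of the summit (x axis, %, log scale) for 10 motifs (y axis) in the lost regions, the kept regions of like strength, all regions of the 3 DMSO lists and the reverse set. Bars are 95% Wilson intervals. The lost regions stand left of both DMSO sets for the composite C/EBP and AP-1 word, at 0.279%, and far left of the reverse set for the ATF4 word, at 0.613% against 6.98%.

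Most lost regions lay away from start sites. Of the 1793, 261 (14.6%, 13.0 to 16.3%) lay within 1000 bp of an annotated start site, 875 (48.8%) in introns, 65 (3.63%) in exons and 592 (33.0%) between genes. All regions had 22.8% at start sites, and the kept regions of like strength 13.9% (13.4 to 14.5%), with an interval that overlaps that of the lost regions. The GC content had a median of 48.7% (interquartile range 43.4 to 55.0%), against 46.7% in kept regions of like strength and 48.0% in all regions. These regions differ in width. In equal windows of 100 bp on each side of the summit the medians were 46.8%, 45.8% and 47.8%, so the lost regions were then below all regions. The share lost by chromosome was highest on chromosome 13, with 1.98% (123 of 6202, 1.66 to 2.36%), and lowest on chromosome 19, with 0.978% (0.722 to 1.32%). The order changed when lost regions were counted per kept region of like strength, with 0.179 on chromosome 21, 0.159 on chromosome 13, 0.144 on chromosome 19 and 0.0990 on chromosome 9, the lowest on the autosomes. Lost regions were scattered, and 34 (1.90%) had another within 10000 bp.

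The distance to the nearest Tm peak varied widely. That peak of any Tm list was a median of 2664 bp away (interquartile range 729 to 6426 bp), and it was within 500 bp in 363 (20.2%) and over 10000 bp away in 244 (13.6%). A region kept in all 6 lists lay within 500 bp of 9.93% of the lost regions (8.63 to 11.4%), close to 10.1% of all regions and 10.2% of the kept regions of like strength. At start sites the nearest Tm peak was within 500 bp in 109 of 261 (41.8%), against 254 of 1532 elsewhere (16.6%). This split was not computed for the comparison sets, so it cannot be called particular to the lost regions. Of the 170 protein-coding genes with a lost region within 1000 bp of the start site, 133 (78.2%) had another such region with a peak in all 6 lists. The same share over all genes was not computed. At KDM6B (chr17:7843948-7844058, 149 bp from the start site) the lost region had 16 tags in EV, 19 in p42 and 18 in p30 cells, and a Tm peak lay 210 bp away. The background there was high, so 11, 10 and 10 tags were needed. At SSB (chr2:169799682-169799825) there were 12, 14 and 14 tags, with 7 needed in each line and a Tm peak at 185 bp.

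Lost regions at start sites fell on both sides of that split. PKMYT1, a kinase that inhibits CDK1 (chr16:2979925-2980126), had 16 tags in EV, 15 in p42 and 14 in p30 cells with 9 needed, and a Tm peak 102 bp away. At SOCS7, a suppressor of cytokine signalling (chr17:38352797-38353034), the region holds the start site, the tags were 13, 17 and 15, and a Tm peak lay 136 bp away. At MAP3K11, a kinase of the JNK pathway (chr11:65607123-65607228), by contrast, the tags were 10, 9 and 9 with 5 needed, and the nearest Tm peak was 3841 bp away. PPP6R3, a regulatory subunit of protein phosphatase 6 (chr11:68601268-68601373), had 7, 9 and 7 tags and no Tm peak within 9463 bp, and TEX2 (chr17:64154488-64154638) had 8, 9 and 7 and none within 7784 bp. PTRHD1 had 16, 20 and 14 tags with the nearest Tm peak 1501 bp away, and NSRP1 had 9, 11 and 10 with a Tm peak at 173 bp. Whether tags follow the distance was not tested.

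**Figure D5:**
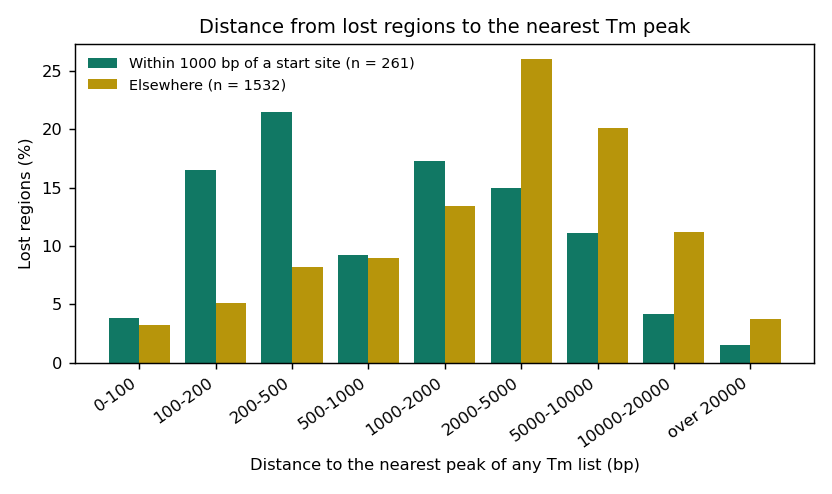
Share of lost regions (y axis, %) by distance to the nearest peak of any Tm list (x axis, bp), for the 261 within 1000 bp of a start site and the 1532 elsewhere. Of the former 41.8% and of the latter 16.6% have a Tm peak within 500 bp. The split was not computed for the comparison sets.

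The genes of the stress response had no lost region. Regions were assigned to every protein-coding gene within 10000 bp, and of 114382 such pairs 1280 (1.12%) held a lost region, at 1189 of 18669 genes (6.37%). At the 30 genes listed for the integrated stress response and the response to unfolded proteins, 0 of 163 regions were lost, where 3 counts would be 1.84%. At 14 AP-1 genes 0 of 85 were lost, where 3 counts would be 3.53%, and at 6 C/EBP genes 0 of 16. With 1.12% as the background, sets of this size could not be shown to be lower.

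The other gene lists had shares on both sides of the background of 1.12%. At 40 haematopoietic transcription factors 2 of 547 regions were lost (0.366%, 0.100 to 1.32%), at RUNX2 and ERG. At 19 genes of receptors and surface proteins 3 of 141 were lost (2.13%, 0.726 to 6.07%), and at 20 genes of the cell cycle and survival 2 of 205 (0.976%), at CCND3 and CDK6, which encode a partner pair that phosphorylates RB. At 27 inflammatory genes 1 of 132 was lost (0.758%), beside IL6, at 14 granule genes 1 of 57, at LTF (lactoferrin), and at the genes of N-glycosylation 1 of 146 (0.685%), at ALG8, a glucosyltransferase of the glycan precursor. Each interval includes the background of 1.12%.

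The 3 receptor regions differed in their surroundings. In the intron of KIT, the stem cell factor receptor (chr4:54688798-54688881), the tags were 13 in EV, 10 in p42 and 12 in p30 cells, and a Tm peak lay 104 bp away. In the intron of CSF1R, the receptor of macrophage colony-stimulating factor (chr5:150103335-150103443), they were 6, 9 and 6, and the nearest Tm peak was 3048 bp away. At CSF2RA, the α chain of the GM-CSF receptor (chrX:1302222-1302403), they were 4, 8 and 8. Every 24-base word of that window stood at 2 or more places of the genome, where chromosome Y was counted too. The median word stood at 2 places and 5.62% of the words at 10 or more, so the window was not called repeated. EV cells were the highest at KIT and the lowest at CSF2RA.

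The region beside IL6, an inflammatory cytokine, lies in an intron of STEAP1B, 2605 bp from the IL6 start site (chr7:22723137-22723279). It had 9, 10 and 9 tags in EV, p42 and p30 cells, where 8, 8 and 7 were needed after Tm, and a Tm peak lay 76 bp away. The CCND3 region (chr6:42042942-42043027) has the AP-1 word in its window and had 14, 14 and 15 tags, with a Tm peak at 1256 bp. The RUNX2 region had 13, 12 and 13 tags, and a Tm peak began 3 bp away.

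The most lost regions at 1 gene were 4 of 19, at SEMA3A, a secreted axon guidance cue. Its strongest, in an intron (chr7:84082131-84082349), had 6 tags in EV, 7 in p42 and 7 in p30 cells, and the 4 regions had 5 to 10 tags with 4 or 5 needed. Another 8 genes had 3 each, at DCLK1 of 16 regions, TSPEAR of 16, SLC24A3 of 39, PARD3 of 44, CAMTA1 of 54, EYS of 57, DAB1 of 59 and GPC5 of 76. The count of regions per gene differs widely, and 1108 of the 1189 genes had a single lost region.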

How the data were processed

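ATAC-seq libraries of KO-52 cells, 2 replicates in each of 6 conditions, were processed by the authors with Trim Galore 0.6.6, Bowtie2 2.4.4 (hg38), Picard, MACS2 and bedtools. The methods cover ChIP-seq and ATAC-seq together, and neither a shift of reads for the Tn5 cut, a filter on mitochondrial reads nor one on mapping quality is named there. The files are 6 peak lists, called by the authors after pooling the replicates of a condition. The deposited fold enrichment is the ratio of pileup to local background at the summit. The deposited −log10 p and −log10 q refer to that background, and the lowest −log10 q was 1.3 (q of 0.05). The deposited integer score of each peak and its summit offset came from the caller too, and only the latter was used.

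Fold and −log10 p were solved for whole tags and background at every summit (tolerance 0.002 in −log10 p). Depth was the lowest background times 2700000000 bp divided by the shortest peak. The step was tested on simulated peaks. Groups came from the labels. Genes are those of GENCODE release 44, and a start site counted within 1000 bp. Shares have 95% Wilson intervals, and 3 counts served as the limit for a share of 0. Strength, tags and width in DMSO belong to the rule that chose the regions, so they are described only. Named are the 25 strongest lost regions and the 15 strongest within 1000 bp of a protein-coding start site, of which not all are printed, regions at genes of 9 lists, genes with most lost regions, and regions with the ATF4 or composite word. The regions and lists were chosen with earlier results of these data known, and the search for repeated windows was added after the data were seen. Stricter thresholds, equal list sizes, scaled depth, other overlaps and windows, and each line left out were tried. Python 3.11.15 with numpy 2.4.6, pandas 2.3.3, scipy 1.17.1 and matplotlib 3.10.9 was used. Counts of reads per replicate were not used here, and the sequences of 3 windows are not reported here.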

Additional observations from a re-analysis of the deposited data

How the results depend on the processing

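The number of lost regions, 1793, fell to 641 with a −log10 q of at least 3 in every DMSO list and to 28 with at least 5, and rose to 2775 where a list had to cover at least 50% of a region. With the EV lists left out it was 9927, with p42 left out 7716 and with p30 left out 6601. Leaving out a line drops both the need for a DMSO peak in it and the need for no Tm peak. With all lists, 10140 regions had a peak in 2 of 3 DMSO lists and in no Tm list. The number of lost regions ranged from 1216 to 2065 under the other alternatives, among them lists of equal size (1216), depth scaling (1576 and 1537) and no Tm peak within 500 bp (1430). Without repeated windows, a choice made after the data were seen, it was 1698. The share at start sites, 14.6%, was 9.59% within 500 bp, 23.8% within 2500 bp, 12.6% at a −log10 q of at least 3 and 10.6% with no Tm peak within 500 bp. The 2 motifs above their share in all regions became 1 with windows of 50 bp, 1 with 250 bp, 1 at a −log10 q of at least 3, and 0 against kept regions of like strength. The 7 motifs below it became 2 at a −log10 q of at least 3. No paired analysis was possible because the replicates were pooled before peaks were called, and for the same reason no replicate could be left out. In 1508 of the lost regions the lower counting bound of the DMSO tags, scaled to the Tm depth, lay above the number needed in no line. The same was not counted for other regions. The part of low tag counts in the absent calls was not tested.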
